A study of Mus musculus with 6 samples.

Results

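Genes of regulatory T cells (Tregs) that encode secreted or surface molecules of suppression and tissue repair, or proteins that process or activate TGF-β, were followed in bulk RNA-Seq counts. These 8 of the 13709 rows of the count table were taken by symbol, namely Tgfb1, Lrrc32, Furin, Itgb8, Il10, Ebi3, Areg and Fgl2, and all 8 were present and were tested. The cells were sorted as CD4+YFP+CD25+ from 3 WT samples (Foxp3Cre) and 3 KO samples (Foxp3Cre Zfp335fl/fl), all on a C57BL/6 background. Both groups carry Cre and YFP in the Foxp3 gene, which restricts the deletion of the zinc finger gene Zfp335 to Foxp3-expressing cells. Mice were 2 weeks old, and the labels disagreed on whether the source was lymph node or spleen. The number of mice in a sample was not given, so p-values measure the spread between these samples. Mice with this deletion are described as inflamed from early life, and in these samples the deletion and the inflamed surroundings cannot be told apart.

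Tregs are CD4+ T cells that hold other immune cells in check, partly through cytokines. TGF-β1 leaves its precursor by a cut that the protease furin makes, stays bound to its own propeptide as a latent complex, and is held on the Treg surface by GARP, the product of Lrrc32. Integrin αvβ8, whose β chain comes from Itgb8, releases active TGF-β from that complex. Il10 encodes the suppressive cytokine IL-10, and Ebi3 a chain that IL-35 and IL-27 share. Areg encodes amphiregulin, an EGF receptor ligand with a role in tissue repair, and Fgl2 a secreted fibrinogen-like protein that binds Fc receptors.

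Zfp335, which marks the deletion, fell in KO Tregs to 38.6% of its WT level (log2 fold change −1.37, SE 0.07, edgeR adjusted p = 2.14e-05). In the annotation Zfp335 overlaps Pcif1 and Zfp335os on the opposite strand. As strand use in counting was not stated, reads of these genes could not be separated from those of Zfp335. All 7 Treg and T cell markers were present, and 2 of these were called lower in KO, Foxp3 and Ikzf2. Foxp3 had a log2 fold change of −0.88 (edgeR adjusted p = 0.0122) and fell short of the fold cutoff without WT replicate 3, at −0.57 (edgeR adjusted p = 1.27e-06). Its call was also lost when tested against a fold of 1.5 with glmTreat (adjusted p = 0.203). Libraries held 32032631 to 40728419 counts. WT replicate 3 stood apart from the other WT samples. The median chi-square of its counts against either of them was 25.82 to 26.26 times that of sampling noise, against 10.07 for WT replicates 1 and 2 and 5.27 to 6.07 among KO samples. For the 8 genes, and for genes of the pathway lists named below where it changed a call or moved a fold by over 1.5 times, values without it are given as well.

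Upstream sequence is shown for the 3 genes called below, with matches to known promoter elements in capitals. Each stretch holds the 120 bases directly before an annotated start on the gene's strand, from RefSeq on GRCm38.p6. The Areg stretch lies at chr5:91139479-91139598 on the plus strand. That of Furin lies at chr7:80405437-80405556 and that of Itgb8 at chr12:119238277-119238396, both on the minus strand.
Areg: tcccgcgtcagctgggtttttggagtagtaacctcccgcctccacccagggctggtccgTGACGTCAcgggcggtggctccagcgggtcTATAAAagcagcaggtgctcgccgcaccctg
Furin: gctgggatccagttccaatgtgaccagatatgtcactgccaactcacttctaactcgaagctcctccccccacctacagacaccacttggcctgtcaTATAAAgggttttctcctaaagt
Itgb8: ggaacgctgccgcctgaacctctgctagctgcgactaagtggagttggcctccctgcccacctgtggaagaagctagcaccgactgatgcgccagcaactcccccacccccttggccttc
In the Areg stretch the capitals mark a cAMP response element (CRE, TGACGTCA) beginning 61 bases before the start and a TATA box (TATAAA) beginning 31 bases before it. The Furin stretch holds a TATA box 23 bases before the start, and a second annotated start of Furin had none of the motifs searched. Of 32851 annotated promoters searched on both strands over 250 bases upstream, 1.55% held the CRE and 12.4% the TATA box. AP-1 (TGANTCA), STAT (TTCNNNGAA) and forkhead (TGTTTAC) motifs, with 6.75%, 7.02% and 3.17% of promoters, had no match in these stretches. Among the other genes with a promoter entry, that of Fgl2 held an AP-1 and a STAT match, 16 and 36 bases before the start, and those of Ebi3 and Tgfb1 held no match. A match in this window is a description of the letters only.

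To ask how loss of Zfp335 altered the transcripts for these mediators, KO was compared with WT across all genes with edgeR's quasi-likelihood test. Calls required a change of more than 1.5-fold, an unadjusted p below 0.05 and an adjusted p below 0.1. Itgb8 fell, Furin and Areg rose, and Tgfb1, Il10, Ebi3, Fgl2 and Lrrc32 were not called. Thus 3 of the 8 genes (37.5%) were called, against 24.4% of the 13594 genes tested. The 2 higher calls compare with 11.9% of all genes called higher, and the 1 lower call with 12.5% called lower. For 4 genes (Lrrc32, Itgb8, Areg and Furin) the KO and WT values did not overlap, as was so for 53.8% of all genes. The same 4 genes had an adjusted p under 0.1 when fold was ignored, as did 47.0% of all genes. The median log2 fold change of the 8 genes was −0.010, against −0.035 over all genes tested. In bulk samples, fewer cells that make a transcript and less transcript per cell cannot be told apart.

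**Figure D1:**
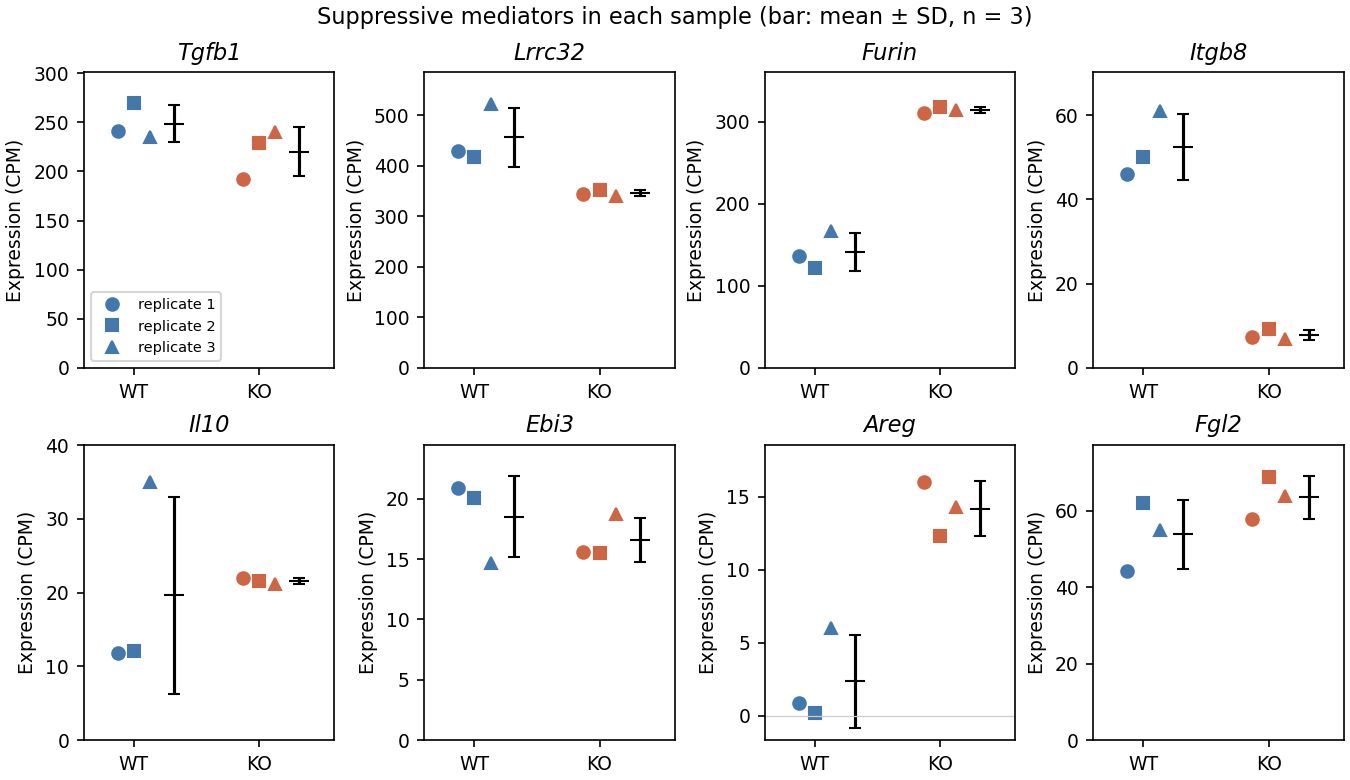
Expression in CPM (counts scaled to the library total, linear axes) of the 8 genes in each WT (blue) and KO (orange) sample, with the mean ± SD of 3 samples as a black bar. KO values of Itgb8 lie far below WT and those of Furin and Areg above it, whereas WT replicate 3 stands above every other sample for Il10.

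Expression is given as CPM, the counts of a gene scaled to the TMM-adjusted library total. Tgfb1, the ligand gene (chr7:25687002-25705077), measured 241, 269.7 and 235.2 CPM across the 3 WT samples and 192, 228.7 and 239.7 CPM across the KO samples. The highest KO value lay inside the WT range. Its mean of 248.6 ± 18.5 CPM in WT compared with 220.1 ± 25.0 CPM in KO (SD, n = 3 each), with a log2 fold change of −0.18 (95% interval −0.41 to 0.057, edgeR adjusted p = 0.207). The interval holds no fall as large as 1.5-fold and includes no change.

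Lrrc32, the gene for the TGF-β docking protein GARP (chr7:98489305-98501831), gave 428.6, 416.4 and 522.4 CPM in WT. In KO it gave 344.9, 351.6 and 340.1 CPM. Every KO value was below every WT value, and the KO samples were nearly equal to each other. KO stood at 75.8% of WT (log2 fold change −0.40, SE 0.095, edgeR adjusted p = 0.0129), a difference below the 1.5-fold cutoff. With WT replicate 3, the highest of the WT samples, left out, the log2 fold change was −0.29 (edgeR adjusted p = 0.000159).

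Furin, the proprotein convertase gene (chr7:80389194-80405441), rose in KO. WT samples had 136.4, 121.5 and 167.1 CPM, and KO samples had 310.2, 317.5 and 314 CPM. The groups were far apart, and the spread within KO was 1.17% of the mean against 16.4% in WT. The difference was 2.22-fold, a log2 fold change of 1.15 (SE 0.11, 95% interval 0.88 to 1.41, edgeR adjusted p = 0.000307). Without WT replicate 3 the log2 fold change was 1.28 (edgeR adjusted p = 4.35e-10). A second gene model, Gm44851, overlaps Furin on the opposite strand and was not listed in the table, and whether counting used strand was not stated. Reads of this pair could therefore not be separated.

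Itgb8, which encodes the β chain of the activating integrin (chr12:119162803-119238276), fell the most of the 8. It measured 46.0, 50.1 and 61.1 CPM in WT and 7.34, 9.21 and 6.92 CPM in KO. The lowest WT sample was thus well above the highest KO sample. KO retained 14.9% of the WT mean (log2 fold change −2.74, SE 0.16, 95% interval −3.10 to −2.38, edgeR adjusted p = 2.74e-05). Raw counts were 1645 to 2034 in WT and 244 to 370 in KO, so the KO level was still far above the limit that 3 counts set at 0.0747 to 0.0913 CPM. Leaving out WT replicate 3 gave −2.62 (edgeR adjusted p = 1.96e-10). No gene overlapped Itgb8 in the annotation.

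Because αv (Itgav) pairs with several β chains, Itgb8 was set beside the others that were in the table, Itgb1, Itgb3 and Itgb5. The shared chain Itgav was not called, with a WT mean of 66.5 ± 3.28 CPM and a KO mean of 58.9 ± 3.16 CPM (log2 fold change −0.18, edgeR adjusted p = 0.107). The 3 other β chain genes rose. Itgb1 measured 404, 414.5 and 208.1 CPM in WT and 905.5, 874.1 and 891.1 CPM in KO, with a log2 fold change of 1.38 (edgeR adjusted p = 0.00296). Itgb3, the β3 chain gene, had a log2 fold change of 1.40 and Itgb5 one of 1.66 (edgeR adjusted p = 0.00158 and 0.000472). Itgb6, whose product also activates TGF-β, was not listed in the table.

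On a scale of CPM per kilobase of the longest transcript, Itgb8 made up 4.32%, 4.66% and 10.3% of the summed level of these 4 β chains in WT replicates 1 to 3. In KO its share was 0.319%, 0.417% and 0.309%. The WT spread came from WT replicate 3, in which Itgb1 and Itgb3 were lower than in the other WT samples, yet all KO shares were below all WT shares. Itgb1 was the major chain in both groups, with 82.0% of the sum in WT and 87.2% in KO. These shares treat each gene as its longest transcript, and β1 chains also pair with many other α chains.

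**Figure D2:**
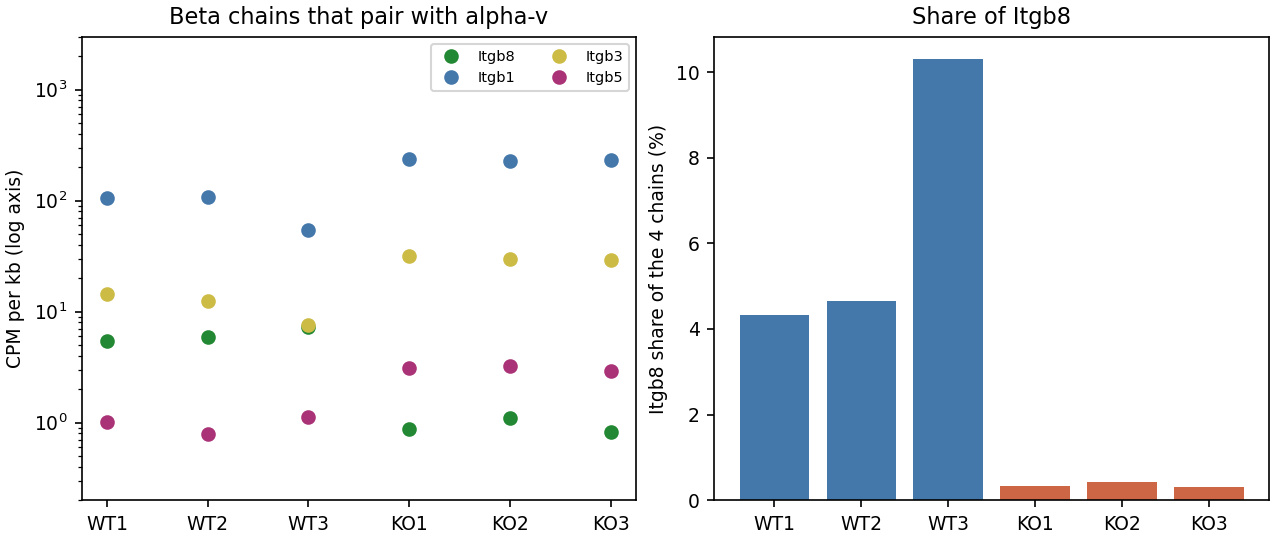
Left, levels of Itgb8, Itgb1, Itgb3 and Itgb5 in each sample in CPM per kilobase on a log axis. Right, the share of Itgb8 in the sum of the 4 chains in percent, with WT in blue and KO in orange; the share was 4.32% to 10.3% in WT and 0.309% to 0.417% in KO.

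Among the secreted factors, Areg rose (chr5:91139599-91148432). WT samples had 0.869, 0.183 and 6.01 CPM, which were 32, 6 and 200 counts, whereas KO samples had 16.0, 12.3 and 14.3 CPM, or 585, 494 and 503 counts. All KO samples exceeded all WT samples, whereas WT replicate 3 was 11.4 times the mean of the other WT samples. The KO mean of 14.2 ± 1.86 CPM was 6.03-fold the WT mean of 2.35 ± 3.18 CPM (SD, n = 3 each). The log2 fold change was 2.60 with a wide 95% interval of 0.54 to 4.65 (edgeR adjusted p = 0.0508). The call depended on the samples and settings used, and was lost without WT replicate 1 (edgeR adjusted p = 0.132) and without KO replicate 1, 2 or 3 (0.136, 0.107 and 0.118). The log2 fold change rose to 4.70 when WT replicate 3 was left out (95% interval 3.96 to 5.44, edgeR adjusted p = 3.22e-08).

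The result for Il10 (chr1:131019845-131024970) also turned on WT replicate 3. WT values were 11.8, 12.1 and 35.0 CPM, and KO values were 22.0, 21.6 and 21.2 CPM. All KO samples lay between WT replicates 1 and 2 on one side and WT replicate 3 on the other. Over all samples the log2 fold change was 0.14 (SE 0.39, 95% interval −0.78 to 1.06, edgeR adjusted p = 0.812), an interval that reaches beyond 1.5-fold in both directions. Without WT replicate 3, Il10 was called higher, 1.81-fold (log2 fold change 0.85, 95% interval 0.62 to 1.08, edgeR adjusted p = 1.03e-05). It was −0.12 when WT replicate 1 or WT replicate 2 was left out.

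Ebi3 and Fgl2 were not called. Ebi3 (chr17:55952623-55957022) measured 20.8, 20.1 and 14.6 CPM in WT and 15.5, 15.5 and 18.7 CPM in KO. WT replicate 3 was the lowest of all samples here, and the groups overlapped (log2 fold change −0.16, 95% interval −0.53 to 0.21, edgeR adjusted p = 0.471). Il12a, whose product is the partner of EBI3 in IL-35, and Il27, the partner in IL-27, were not listed in the table. Fgl2 (chr5:21372673-21378386) measured 44.3, 62.1 and 54.9 CPM in WT and 57.7, 68.9 and 63.8 CPM in KO. The log2 fold change of Fgl2 was 0.24 (95% interval −0.064 to 0.54, edgeR adjusted p = 0.189), which leaves out a change of 1.5-fold or more. Fgl2 overlaps Ccdc146 and Ebi3 overlaps Gm16712 on the opposite strand, neither of them listed, so reads of these pairs could not be separated either.

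The dependence on WT replicate 3 was compared with that of other genes. Its Il10 level was 2.93 times the mean of WT replicates 1 and 2, and its Areg level 11.4 times. Among 9882 genes that averaged 5 CPM or more, 6.36% were over 1.5 times that mean in WT replicate 3 and 6.23% were under 1/1.5 of it. The other 6 genes had ratios between 0.715 for Ebi3 and 1.30 for Furin. With that sample left out, 4 of the 8 genes were called (Itgb8, Furin, Areg and Il10), against 26.8% of all genes tested. Tgfb1 and Ebi3 then had 95% intervals below 0 (−0.39 to −0.043 and −0.56 to −0.060), and their log2 fold changes of −0.22 and −0.31 stayed under the fold cutoff. The interval of Fgl2 then lay above 0 (0.0058 to 0.50), with a log2 fold change of 0.25 (edgeR adjusted p = 0.0814).

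**Figure D3:**
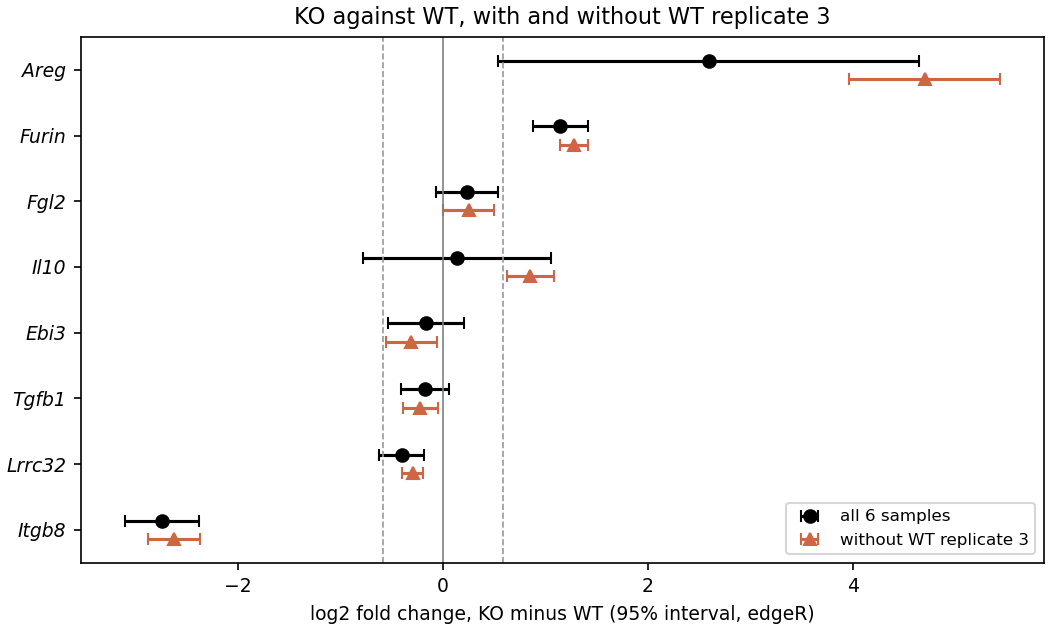
Log2 fold changes of KO over WT from edgeR with 95% intervals, for all 6 samples (black) and without WT replicate 3 (orange), with dashed lines at a fold of 1.5 in either direction. Il10 moves from 0.14 to 0.85 and Areg from 2.60 to 4.70, whereas Itgb8 moves only from −2.74 to −2.62.

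Levels were compared between genes per kilobase of the longest transcript. In WT the order was Tgfb1 (114.3 ± 8.49 CPM per kb), Lrrc32 (99.6 ± 12.7) and Furin (32.7 ± 5.37), then Ebi3 (16.0 ± 2.93), Il10 (15.0 ± 10.2) and Fgl2 (14.2 ± 2.37), then Itgb8 (6.24 ± 0.929) and Areg (1.94 ± 2.62). Tgfb1 and Lrrc32 overlapped between samples, and so did Ebi3, Il10 and Fgl2. In KO, Furin (72.5 ± 0.845 CPM per kb) had come close to Lrrc32 (75.5 ± 1.26), with Tgfb1 above both at 101.2 ± 11.5. Fgl2, Il10 and Ebi3 followed at 16.8, 16.5 and 14.4 CPM per kb, then Areg at 11.7 ± 1.53 and Itgb8 at 0.931 ± 0.145. The last places were thus exchanged, as Areg ranked below Itgb8 in WT and above it in KO. Among all genes with a length, Itgb8 went from percentile 44.0 to 21.4, Areg from 27.7 to 58.3 and Furin from 82.7 to 93.0, while Tgfb1 stayed at 96.5 and 95.4.

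Genes that act with these mediators were counted by list. Of 64 such genes other than the 8, 51 were in the table and tested, and 24 of them (47.1%) were called, 13 higher and 11 lower in KO. The lists were written with results of these samples known and hold many genes of activated T cells, so their share is not set against that of all genes as evidence. Genes of the TGF-β ligand and latency list moved both ways, with 2 of 9 higher, 1 lower and 6 not called. Tgfb3, a second TGF-β ligand, had 4.29, 2.83 and 1.62 CPM in the WT samples and 12.9, 14.9 and 13.3 CPM in the KO samples (log2 fold change 2.23, edgeR adjusted p = 0.00129). Tgfb2 had a log2 fold change of 3.04 (edgeR adjusted p = 0.0115) from a WT mean of 0.401 CPM. The lowest WT value of Tgfb2, 0.0601 CPM in replicate 3, was below the limit of 3 counts, and its log2 fold change was 4.31 without WT replicate 1 and 2.53 without WT replicate 3. Per kilobase, Tgfb1 still made up 95.5 ± 0.496% of the ligand sum in KO, against 99.2 ± 0.424% in WT. Ltbp1, for a protein that anchors latent TGF-β in the matrix, fell (log2 fold change −2.06, edgeR adjusted p = 0.0301). Its levels were low, at 1.09, 1.95 and 1.86 CPM in WT and 0.11, 0.597 and 0.454 CPM in KO. It was not called when tested against a fold of 1.5 with glmTreat (adjusted p = 0.116). Nor was it tested when at least 10 counts were required in every sample. Ltbp4, for a related protein, was called lower only without WT replicate 3 (log2 fold change −1.22, edgeR adjusted p = 0.0157). Nrros, which encodes a relative of GARP, had values in KO above all in WT but was under the fold cutoff (log2 fold change 0.40, edgeR adjusted p = 0.00854).

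In the list of TGF-β processing and activation, 4 of the 9 genes tested were higher (Furin, Itgb1, Itgb3 and Itgb5), 2 lower (Itgb8 and Mmp14) and 3 not called. Mmp14, a membrane metalloprotease gene, had a log2 fold change of −0.60, just past the cutoff. It was not called under DESeq2 (−0.58), under RLE scaling (−0.58), without WT replicate 1 (−0.58) or without KO replicate 3 (−0.52). Nor was it called with glmTreat (adjusted p = 0.803). Mmp9, a secreted metalloprotease gene, had 0.163, 0.335 and 3.88 CPM in WT and was called higher only when WT replicate 3 was left out (log2 fold change 2.60, edgeR adjusted p = 0.00185). Of the other furin-like convertases, Pcsk7 was not called, with a log2 fold change of 0.24 (edgeR adjusted p = 0.0366), and Pcsk5 and Pcsk6 were not listed.

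Receptor genes for IL-10 and the IL-12 family included 2 called lower among 6 genes tested in their list, and none was called higher. Il27ra, a receptor gene of that list, was at 69.3% of WT, under the fold cutoff (log2 fold change −0.53, edgeR adjusted p = 0.000958). The signal-transducing chain Il6st dropped from 467.2 ± 5.48 to 172.5 ± 6.33 CPM (log2 fold change −1.44, edgeR adjusted p = 9.99e-06). Il10rb, one of the IL-10 receptor chains, had a log2 fold change of −0.93 (edgeR adjusted p = 0.000208). The other chain, Il10ra, was not called (−0.53, edgeR adjusted p = 0.0811), and was highest in WT replicate 3, at 149.6 CPM against 94.4 and 81.8 in the other WT samples. It was called lower without WT replicate 1 (−0.62) or without WT replicate 2 (−0.70), but not without WT replicate 3 (−0.23). Of 8 transcription factors known to act on Il10, only Bhlhe40, a repressor of Il10, was called over all samples, at 98.6, 102.7 and 192.1 CPM in the WT samples and 527.6, 543.3 and 556 CPM in the KO samples (log2 fold change 2.05, edgeR adjusted p = 0.000653). Under the fold cutoff, Irf4 was lower (−0.52, edgeR adjusted p = 0.00282), and Batf (0.51, 0.0044) and Stat3 (0.31, 0.0287) were higher. In WT replicate 3, where Il10 was highest, each of these 8 factors was also highest among the WT samples, the repressor Bhlhe40 included. The share of all genes highest in that sample is not given here, and a link between these factors and Il10 was not tested. Among them were Maf and Nfil3, which promote Il10 transcription. That sample had 239.3 CPM of Maf against 130 and 140.1, and 57.2 CPM of Nfil3 against 16.5 and 15.6. Their log2 fold changes over all samples were −0.016 and −0.080, with edgeR adjusted p of 0.963 for Maf. Without that sample Nfil3 was called higher (log2 fold change 0.81, edgeR adjusted p = 7.4e-06).

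In the EGF family list 2 of 11 genes were higher (Areg and Rhbdf2), 3 lower (Btc, Erbb3 and Rhbdf1) and 6 not called. Rhbdf2, whose product carries the amphiregulin sheddase ADAM17 to the surface, rose from 20.1 ± 6.02 to 67.6 ± 5.15 CPM (log2 fold change 1.75, edgeR adjusted p = 0.000465). Adam17 itself was not called, with a log2 fold change of 0.15. The related ligand Hbegf, like Areg, was highest among WT samples in replicate 3 (0.869, 0.883 and 4.09 CPM), with a log2 fold change of 0.57 (edgeR adjusted p = 0.504). Without that sample it was called higher at 1.71 (edgeR adjusted p = 0.00155). Btc, another ligand, was under 1 CPM in every sample. Its call (edgeR adjusted p = 0.0878) was lost under DESeq2, with glmTreat and under a fit with the replicate number as a block. The call was also lost when any sample other than WT replicate 3 was left out. Rhbdf1, a relative of Rhbdf2, had a log2 fold change of −1.32 (edgeR adjusted p = 0.0309). It was not called without KO replicate 2 or KO replicate 3, or with glmTreat (adjusted p = 0.171).

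Receptors of FGL2 rose while Fgl2 itself was not called. Fcgr2b, the inhibitory Fc receptor gene, went from 1.15 ± 0.560 to 5.67 ± 1.03 CPM (log2 fold change 2.29, edgeR adjusted p = 0.00229), and Fcgr3 had a log2 fold change of 1.14 (edgeR adjusted p = 0.0219). The call of Fcgr3 was lost when tested against a fold of 1.5 with glmTreat (adjusted p = 0.155). Fcgr2b and Fcgr3 are best known from B and myeloid cells. Fgl1, a ligand of LAG3, fell from a WT mean of 0.587 CPM to 0.123 CPM, near the counting limit. Lag3 was not called over all samples (log2 fold change 0.44, edgeR adjusted p = 0.0769) and was called higher without WT replicate 3 (0.67, edgeR adjusted p = 2.6e-06).

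Other Treg mediators were called in both directions, 4 of 11 higher, 3 lower and 4 not called. The granule genes Gzmb and Prf1, the galectin gene Lgals1 and the ectonucleotidase gene Entpd1 rose, with log2 fold changes of 4.44, 2.83, 2.10 and 1.01. Without WT replicate 3 that of Gzmb was 5.18. Nt5e, for the enzyme that makes adenosine from AMP, fell like Itgb8, at 338.6, 351 and 383.6 CPM in the WT samples and 73.8, 66.4 and 65.6 CPM in the KO samples (log2 fold change −2.38, edgeR adjusted p = 4.29e-06). Nrp1, a surface receptor gene, and Penk, the proenkephalin gene, had log2 fold changes of −1.14 and −0.81. Penk was not called when tested against a fold of 1.5 with glmTreat (adjusted p = 0.241). Ctla4, the inhibitory receptor gene, was not called (log2 fold change −0.41, edgeR adjusted p = 0.185). It was highest in WT replicate 3, at 920.5 CPM against 507.2 and 509.2, and without that sample its log2 fold change was −0.065.

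**Figure D4:**
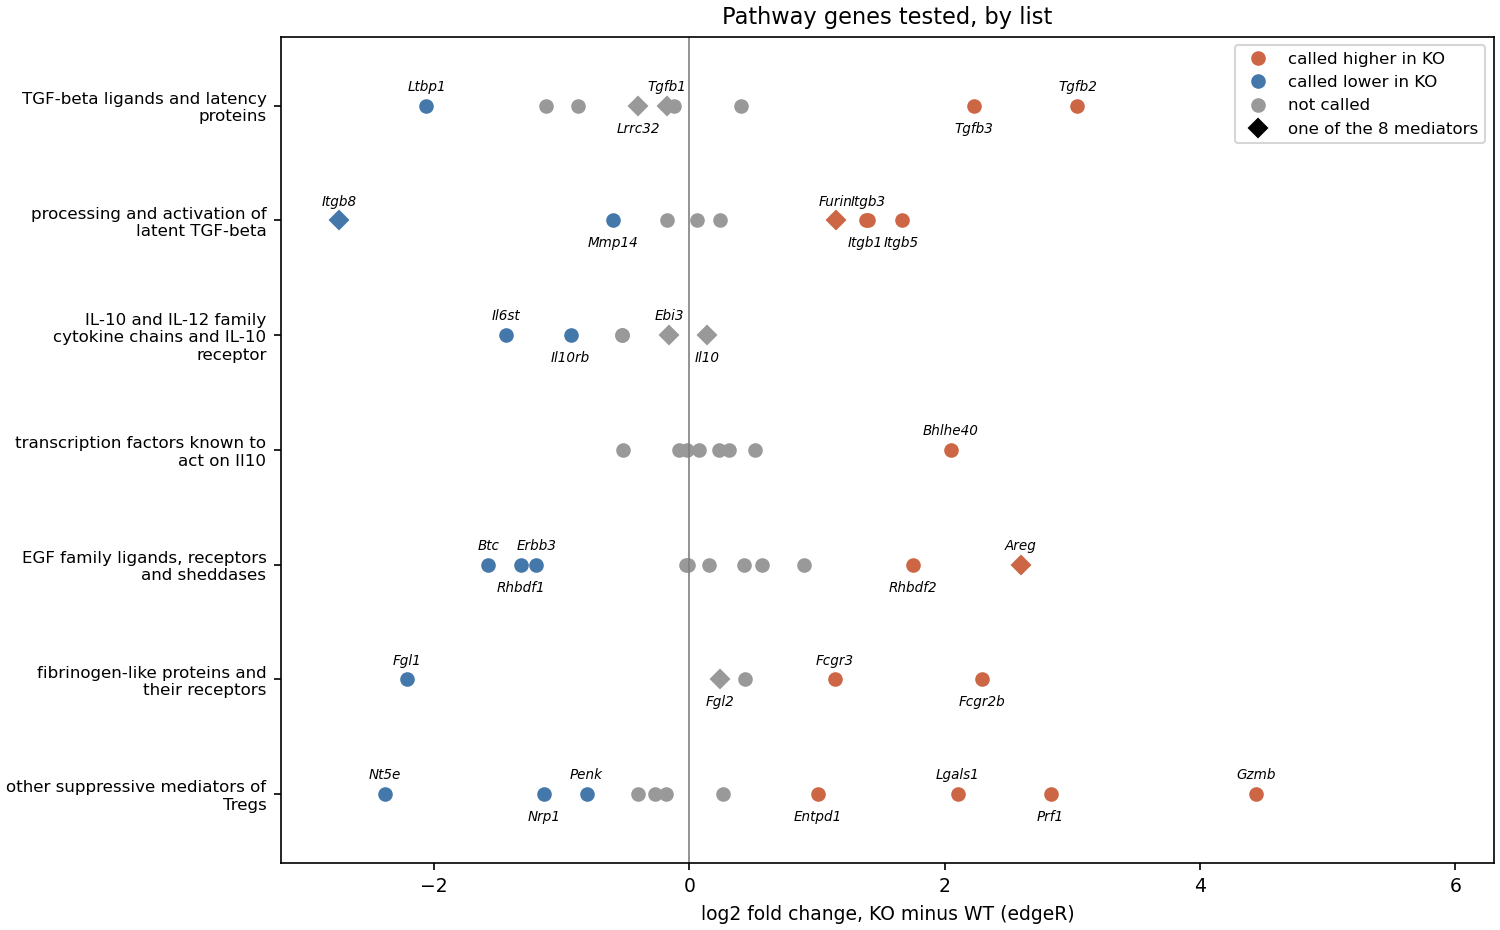
Log2 fold changes of KO over WT from edgeR for the genes tested in 7 lists, colored by call, with diamonds for the 8 mediators and names for mediators and called genes. TGF-β activation genes are split, with Itgb8 at −2.74 and Furin, Itgb1, Itgb3 and Itgb5 between 1.15 and 1.66.

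Markers of other cells moved with genotype as well. The summed level of the 7 monocyte and macrophage markers in the table was 17.5 to 30.2 CPM in WT and 51.3 to 58.9 CPM in KO, and 5 of the 7 were called higher. Csf1r, a defining marker, had 1.49, 2.68 and 0.391 CPM in WT and 7.23, 7.29 and 6.27 CPM in KO, while Cd14 was not in the table. Dendritic cell markers summed to 2.41 to 4.24 CPM in WT and 8.92 to 11.7 CPM in KO, and Clec9a was not in the table. Most of this difference was in Itgax (0.436 CPM in WT and 7.02 CPM in KO on average), and the 4 other dendritic cell markers in the table (Flt3, Xcr1, Siglech and Zbtb46) were not called. Neutrophil markers summed to 1.05 to 1.93 CPM in WT and 4.43 to 7.34 CPM in KO. Their 2 higher calls were S100a8 and S100a9, both at 0 in every WT sample. Cxcr2 was not called (1.58 and 1.26 CPM on average), and Ly6g and Retnlg were not in the table. The study's single-cell data on sorted Tregs of younger mice reported high S100a8 and S100a9 in a Treg cluster that accumulated in KO. These genes are therefore not specific to neutrophils here. NK cell markers summed to 3.59 to 5.83 CPM in WT and 14.9 to 16.2 CPM in KO. Most of this difference was in Eomes (2.31 CPM in WT and 11.3 CPM in KO on average), and Klrb1c was also called higher. Ncr1 was not called (0.3835 and 0.940 CPM on average), and Klra8 was not in the table. B cell and plasma cell markers summed to 18.3 to 20.2 CPM in WT and 13.4 to 14.6 CPM in KO, with Cd79b called lower and Jchain higher. The 4 basophil and mast cell markers were not in the table. The part of such cells in the higher levels of Areg, Furin, Tgfb2, Tgfb3, Fcgr2b and Fcgr3 was not tested. In WT replicate 3, where Il10 and Areg were highest among WT samples, monocyte and macrophage markers were lowest, at 17.5 CPM against 29.9 and 30.2 CPM. Most of this was Lyz2 (4.30 CPM against 12.7 and 13.9), whereas Itgam was highest there among WT samples (3.725 CPM against 2.58 and 2.74). Erythroid markers were also lowest there, at 23.3 CPM against 84.6 and 101 CPM. The Treg and T cell sum was highest there, at 5369 CPM against 4263 and 4135 CPM. Foxp3 (1190 CPM against 738.1 and 642.1), Il2ra, Ctla4 and Tnfrsf18 were highest there among WT samples. Ikzf2 and Cd3e were lowest there, and Cd4 lay between the other WT samples. The dendritic cell sum was highest there among WT samples, at 4.24 CPM against 3.31 and 2.41. This came from Zbtb46 (3.485 CPM against 1.358 and 0.5785), whereas Itgax, Xcr1 and Siglech were lowest there among WT samples. The NK cell sum was also highest there among WT samples (5.83 CPM against 3.61 and 3.59), with Eomes and Klrb1c highest. Ncr1, in contrast, was lowest there (0.120 CPM against 0.543 and 0.487). Stromal and endothelial markers summed to 193.7 to 208.4 CPM in WT and 137.1 to 145.8 CPM in KO. Nearly all of this sum was Pecam1 (196.7 and 136.6 CPM on average), which was not called, and Col1a2 alone of these markers was called lower.

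For each mediator, the 2 genes with the most similar profile were found among those same 9882 genes, by the Euclidean distance of log2 CPM centered over the 6 samples. Itgb8 lay nearest to Sh3tc1 (distance 0.198) and Spock2 (0.355), both also much lower in KO. Furin lay nearest to Klf12 (0.126) and Adap1 (0.152). Lrrc32 had the closest neighbors of the 8, Arid4a (0.0337) and Cbl (0.0551). Il10 lay nearest to Ifi206 (0.153) and to the activation marker gene Cd69 (0.203), both also highest in WT replicate 3. Areg had no close neighbor, the nearest being one of the rows of Lilrb4a (1.68) and Ifi211 (1.88). The nearest genes to Ebi3 were Timm17b (0.0937) and Adam15, to Fgl2 Manea (0.0841) and Mrpl1, and to Tgfb1 Fntb (0.0867) and Zfat. All these distances share the same 6 libraries and are descriptions with no test.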

How the data were processed

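RNA-Seq was done on sorted CD4+YFP+CD25+ Tregs, 3 samples per genotype. Per the study's methods and the submitters' processing notes, reads were filtered with SOAPnuke, aligned to mm10 with HISAT2, and assigned to genes with StringTie. The authors deposited whole-number counts per gene, without normalization. Strand and annotation were not given in the sources used here. No gene summed to fewer than 60 counts across the 6 samples, so low genes were absent before testing.

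Counts were tested with edgeR 4.0.16 (R 4.3.3), after filterByExpr (minimum count 10, 115 genes removed) and TMM scaling, by the quasi-likelihood test with no covariate. P-values are two-sided and adjusted by the Benjamini-Hochberg method over 13594 genes. The SE is the log2 fold change divided by the square root of F. Calls used the study's cutoffs (fold 1.5, p 0.05, adjusted p 0.1). Positions are those of GRCm38, from RefSeq. Transcript lengths came from GENCODE M21, which matched 99.42% of symbols. The limit of 3 counts reflects counting error alone, as PCR duplicates do not count separate molecules. Genes named are the 8 mediators, Zfp335, called members of the lists, partners of a mediator, and the 2 nearest profiles. List members that were not called, and cell type markers, were also named where their values bear on a mediator, after these were seen. The mediators and lists were chosen with earlier results of these data known. The procedure was tested on simulated data with the same spread for every gene and no outlying sample, unlike these data. That test cannot speak to results that turn on WT replicate 3. Alternatives were DESeq2 1.42.0, RLE scaling, library totals, 2 other count filters, 2 other cutoffs, GC and length offsets, a replicate block, and leaving out each sample.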

Additional observations from a re-analysis of the deposited data

How the results depend on the processing

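The number of the 8 mediators called was 2 to 4 under every alternative. Areg was not tested when at least 10 counts were required in every sample, and was not called when an adjusted p of 0.05 alone was the cutoff (0.0508) or when tested against a fold of 1.5 with glmTreat (0.164), so 1 mediator was called higher in each of these 3 settings. It was 1 to 3 when a sample was left out. The Areg log2 fold change ranged from 2.05 to 4.70 when a sample was left out. Lrrc32 joined Itgb8 when the fold was ignored and the adjusted p cutoff was 0.05, which made 2 mediators called lower. Itgb8 and Furin stayed called in the same direction under every alternative. Over all genes, 5244 were called by an adjusted p below 0.05 alone (2610 higher, 2634 lower) and 1686 with glmTreat (941 higher, 745 lower), against 3318 as reported. Il10 turned to −0.064 with GC and length offsets and ranged from −0.12 to 0.85 when a sample was left out. Among list genes near 0, Maf turned to 0.0049 under DESeq2, 0.0050 under RLE scaling and 0.039 under the replicate block, and Nfil3 to 0.20 under the block. When a sample was left out, Maf ranged from −0.18 to 0.31, Prdm1 from −0.13 to 0.56, Nfil3 from −0.39 to 0.81 and Mmp9 from −0.48 to 2.60. For these changes the cause was not tested. Replicate numbers gave no sign of pairing, as deviations of same-numbered samples correlated at 0.038, 0.040 and −0.012. With 3 samples per genotype these values cannot settle whether samples were paired. With the replicate block, 3 mediators and 3190 genes were called. Areg then had a log2 fold change of 3.44 (edgeR adjusted p = 0.0247). Depth limits Btc, Fgl1, Ltbp1 and Tgfb2, whose lowest levels lie near the counting limit.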
